A study of Mus musculus with 2 samples.

Results

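The members described here are 2093 multi-exon RNA structures that GENCODE M21 does not list, read in adrenal glands of young mice. Each is a chain of introns whose transcript model the authors' tables class as NIC, a name given to a transcript that joins splice sites already in the annotation in a way no annotated transcript does. A chain was chosen by its reads: it had to be classed NIC, hold 2 or more exons and have 5 or more reads in either library, and models were joined between libraries by chromosome, strand and intron chain. This left 1335 models in replicate 1 and 1495 in replicate 2, out of 33724 NIC chains with any read and 148501 multi-exon chains of all classes. Long-read RNA sequencing, which reads a complementary DNA copy of an RNA from end to end, was applied to adrenal tissue of male B6CASTF1/J mice aged 25 days. These mice are the first-generation cross of C57BL/6 and CAST/EiJ. The study has a single group of 2 libraries, called replicates 1 and 2 in the labels, and nothing else was compared. The labels do not show clearly whether the libraries came from separate animals, so any difference between them may be technical.

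Splicing removes introns from a precursor RNA and joins the exons that remain. A gene can yield several RNAs when a whole exon is left out (exon skipping), when an intron is kept (intron retention), or when another first exon, last exon or splice site is used. An exon whose length is a multiple of 3 bases can be left out without shifting the reading frame of the protein. A shifted frame usually meets an early stop codon, and an early stop well ahead of the last exon junction is known to mark an RNA for nonsense-mediated decay. The adrenal cortex makes steroid hormones from cholesterol with a short chain of P450 enzymes, and the medulla holds chromaffin cells, which make catecholamines.

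Replicate 1 held 793999 reads and replicate 2 held 1290342, of which 752432 in replicate 1 and 1210671 in replicate 2 were assigned to genes. Markers of the cortex (7 of 7) and of the medulla (5 of 5) were read in both. Liver markers summed to 225 CPM (reads per 1000000 gene reads) in replicate 1, where 5 of 8 had 0 reads (Ahsg, Apoa1, Fgb, Gc and Ttr), and to 73727 CPM in replicate 2, where all 8 were read, at 2743 to 26314 CPM each. The 6 skeletal muscle markers were all read in replicate 1, with 3817 CPM in sum, and 1 of them in replicate 2, with 0.826 CPM. In such bulk tissue, fewer cells of a type and less RNA per cell cannot be told apart. A count of 0 allows up to 3 reads, or 3.99 CPM for replicate 1 and 2.48 for replicate 2. Intervals are exact Clopper-Pearson 95% intervals and cover counting error only. Of the NIC multi-exon models, 73.2% in replicate 1 and 72.8% in replicate 2 rested on a single read, and the models with 5 or more reads held 2.58% of the gene reads of replicate 1 and 2.23% of those of replicate 2.

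Examples of exons that members left out, very short ones and exons of ordinary length, are shown. In each line below the bases in capitals are the annotated exon that the member lacks, and the 20 lower-case bases on either side belong to the neighbouring exons of the same annotated transcript. All are read 5′ to 3′ on the transcript strand from GENCODE M21 (mm10), lie inside annotated coding sequence, and are those of the C57BL/6 reference, not of the CAST/EiJ allele. The first 5 are very short exons: exon 13 of Hnrnpk (chr13:58393853-58393868, minus strand), exon 3 of Idh3g (chrX:73782298-73782309, minus strand), exon 9 of Phb2 (chr6:124716425-124716430, plus strand), exon 2 of Sept7 (chr9:25264203-25264207, plus strand) and exon 15 of Itih3 (chr14:30914049-30914051, minus strand).
Hnrnpk exon 13: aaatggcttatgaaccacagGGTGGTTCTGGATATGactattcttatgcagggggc
Idh3g exon 3: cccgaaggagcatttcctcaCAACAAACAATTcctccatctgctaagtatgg
Phb2 exon 9: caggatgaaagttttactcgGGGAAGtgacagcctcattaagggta
Sept7 exon 2: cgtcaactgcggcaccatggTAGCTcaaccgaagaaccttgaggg
Itih3 exon 15: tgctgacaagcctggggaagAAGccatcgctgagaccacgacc
The next 7 are exons of ordinary length: exons 2 and 4 of Cyp21a1 (chr17:34804044-34804133 and chr17:34803348-34803443, minus strand), exon 4 of Srd5a2 (chr17:74021384-74021534, minus strand), exon 3 of G3bp1 (chr11:55487479-55487560, plus strand), exon 19 of Tbc1d9b (chr11:50168169-50168225, plus strand), exon 13 of Stk39 (chr2:68308992-68309054, minus strand) and exon 4 of Ambp (chr4:63150328-63150444, minus strand).
Cyp21a1 exon 2: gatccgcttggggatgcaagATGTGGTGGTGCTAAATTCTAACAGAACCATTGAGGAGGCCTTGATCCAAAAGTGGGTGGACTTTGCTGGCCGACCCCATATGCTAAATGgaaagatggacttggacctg
Cyp21a1 exon 4: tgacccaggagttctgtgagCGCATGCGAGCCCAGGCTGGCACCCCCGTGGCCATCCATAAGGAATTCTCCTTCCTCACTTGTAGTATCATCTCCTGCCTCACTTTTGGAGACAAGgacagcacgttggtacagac
Srd5a2 exon 4: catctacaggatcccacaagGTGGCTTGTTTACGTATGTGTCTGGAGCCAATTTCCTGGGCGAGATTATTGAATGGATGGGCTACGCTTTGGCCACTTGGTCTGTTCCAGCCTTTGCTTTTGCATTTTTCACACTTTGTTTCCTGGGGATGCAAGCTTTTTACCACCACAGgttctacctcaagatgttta
G3bp1 exon 3: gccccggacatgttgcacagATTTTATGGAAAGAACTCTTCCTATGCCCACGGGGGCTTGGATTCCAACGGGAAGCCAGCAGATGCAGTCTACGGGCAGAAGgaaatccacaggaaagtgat
Tbc1d9b exon 19: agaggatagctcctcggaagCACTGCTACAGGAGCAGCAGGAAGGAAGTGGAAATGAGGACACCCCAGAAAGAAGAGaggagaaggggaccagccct
Stk39 exon 13: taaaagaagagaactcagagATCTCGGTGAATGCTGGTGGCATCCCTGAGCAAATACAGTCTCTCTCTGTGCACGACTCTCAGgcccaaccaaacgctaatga
Ambp exon 4: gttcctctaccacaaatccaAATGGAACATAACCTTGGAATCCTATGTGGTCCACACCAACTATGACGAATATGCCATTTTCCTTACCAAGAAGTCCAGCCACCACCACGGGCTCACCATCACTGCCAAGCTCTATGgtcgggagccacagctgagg
The exons of Cyp21a1 (90 and 96 bases), Tbc1d9b (57), Stk39 (63) and Ambp (117) are multiples of 3, and those of G3bp1 (82) and Srd5a2 (151) are not.

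Exon skipping made up 200 of the 2093 members, 9.56% (interval 8.33 to 10.9), in 174 genes. A chain was called exon skipping when a new intron ran from the start of an intron to the end of a later intron of 1 annotated transcript, so that whole exons of that transcript lay inside it. The most frequent structure was a new combination of annotated introns (1064 members, 50.8%), in which every junction is listed but not together. Members with a retained intron came next (466, 22.3%), then members with another new junction (360, 17.2%). The last 3 members lay in loci with no annotated gene. The most-read of these, on chromosome 18, had 57 of 58 reads of its locus in replicate 1, where it was classed antisense, and 84 of 91 in replicate 2. By reads, exon skipping held 6.10% of member reads in replicate 1 and 9.58% in replicate 2, and new combinations held 51.6% in replicate 1 and 44.4% in replicate 2.

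**Figure D1:**
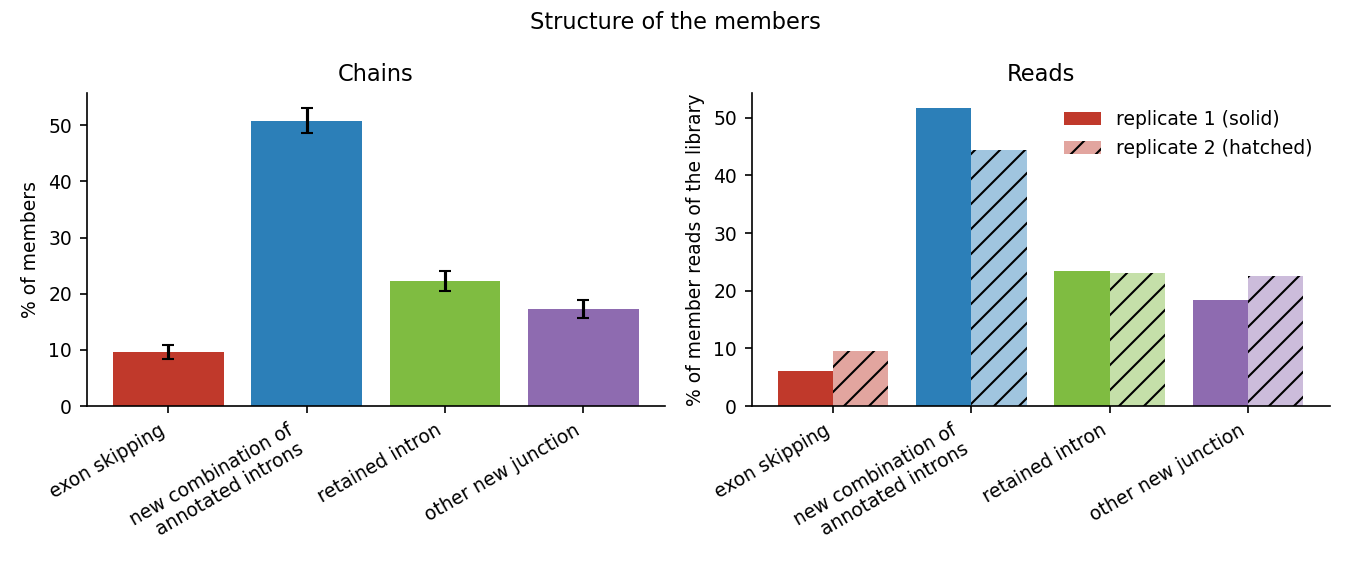
Left, share of the members (%) with each structure, with exact 95% intervals. Right, share of the member reads (%) of each library, replicate 1 solid and replicate 2 hatched. New combinations of annotated introns are the most frequent structure, at 50.8% of members, and exon skipping is the least frequent of the 4, at 9.56%. The 3 members in loci with no annotated gene are not drawn.

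The class name did not hold for every member. A splice site that GENCODE M21 does not list was found in 304 members (14.5%), although NIC stands for known sites. Of these, 295 were among the 360 members with another new junction, and 65 of that structure had annotated sites throughout. The 295 held 406 unlisted sites. Within 6 bases of an annotated site of the same kind lay 128 of them, with 43 exactly 3 bases and 51 exactly 4 bases away, and 220 lay over 30 bases from any. The other library gave 129 members the class NNC, the class for new splice sites, and 50 the class ISM, an incomplete match. Without the members that hold an unlisted site, 1789 remained and exon skipping made up 10.9% of them.

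Members in every structure included some that differed from an annotated transcript by very few bases. Each was set against the annotated transcript of its gene with which it shared most introns. The difference was counted as bases that lie inside an intron of one and not inside an intron of the other. Such bases can lie beyond the end of a chain, so large differences are not lengths of exon. Cyb561 chain 1, with a length of 2504 bases, counted 4011. The difference was 6 bases or fewer in 236 of 2090 members (11.3%) and 30 or fewer in 389 (18.6%), with a median of 172. Among members with another new junction 28.1% differed by 6 bases or fewer, against 11.1% of new combinations, 2.58% of retained introns and 2.50% of exon skipping. Ctbp1 chain 1, from a gene for a transcriptional corepressor (chromosome 5, 33247723 to 33274992), gained 3 exon bases relative to its closest transcript at 1 intron and held 244 of 411 multi-exon reads of the gene in replicate 1 and 183 of 296 in replicate 2.

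Annotated exons under 27 bases were part of these differences in a small share of the members. In 57 of 2090 members, from 35 genes, an exon under 27 bases of the closest annotated transcript was missing. These members held 1899 reads in replicate 1 and 2707 in replicate 2. They involved 36 distinct short exons, of which 27 were in no read of either library. Hnrnpk encodes an RNA-binding protein of nuclear ribonucleoprotein complexes. Hnrnpk chain 1 had 235 reads in replicate 1 and 202 in replicate 2, and Hnrnpk chain 2 had 183 in replicate 1 and 146 in replicate 2. No read of 635 in replicate 1 or 585 in replicate 2 held the 16-base exon 13. Both chains gained 16 exon bases beside the 16 they lost, at a splice site that is not listed. All 7 Hnrnpk members lacked the exon, with 569 reads (89.6%) in replicate 1 and 500 (85.5%) in replicate 2. Pitpnb chain 1 gained 8 exon bases and lost 8 (named after its values were seen). In all, 8 members gained as many exon bases as they lost, and 20 lacked the short exon and differed by nothing else.

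Idh3g, a subunit of mitochondrial isocitrate dehydrogenase, had 216 reads of chain 1 out of 308 in replicate 1 and 306 out of 411 in replicate 2. No read held its 12-base exon 3, and chain 1 gained 4 bases in its place. Phb2, which encodes a prohibitin of the inner mitochondrial membrane, had 177 of 184 reads in chain 1 in replicate 1 and 275 of 296 in replicate 2, and no read held its 6-base exon 9. Sept7, a septin of the cytoskeleton, had 134 of 146 reads in replicate 1 and 122 of 142 in replicate 2 in a chain without the 5-base exon 2. Itih3, a plasma protein made in liver, had 0 multi-exon reads of any chain in replicate 1. In replicate 2, 609 of 884 were in a chain without a 3-base exon. In these 4 genes a member was the leading structure, and the annotated exon that defines the difference was not read at all. Dnm2 was unlike them: its 12-base exon was in 81 reads of replicate 1 and 28 of replicate 2 (named after its values were seen).

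The same was measured over all annotated internal exons of genes with 100 or more reads. None of 40 exons of 1 to 9 bases was read, which with the exact interval allows a share of up to 8.81%. Of exons of 10 to 17 bases 3 of 81 were read (3.70%, interval 0.770 to 10.4), and of exons of 18 to 26 bases 117 of 205 (57.1%, 49.99 to 63.9). Of exons of 27 to 50 bases 1483 of 1735 were read (85.5%), of 51 to 100 bases 93.2% and of 101 or more bases 92.3%. Whether the RNAs lacked these exons, or the reads held their bases and the models did not, was not tested.

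**Figure D2:**
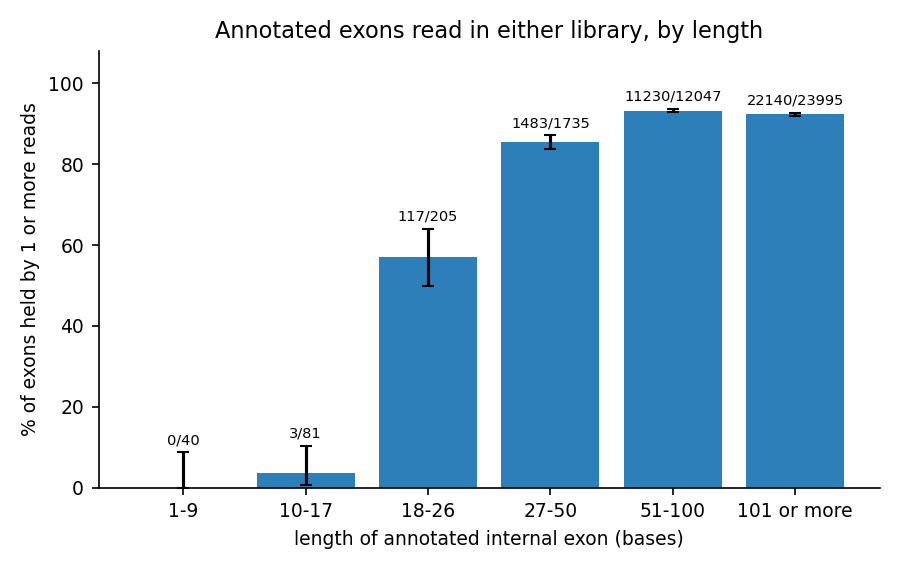
Share (%) of annotated internal exons, in genes with 100 or more reads, that at least 1 read of either library held, by exon length in bases. Bars carry exact 95% intervals and the counts behind them. The share was 0 of 40 for the shortest exons and 93.2% for exons of 51 to 100 bases.

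Of the 200 exon-skipping members, 173 left out 1 exon, 20 left out 2, 5 left out 3 and 2 left out more, up to 10 exons in Aass chain 1 (named after its values were seen). The skipped segment had a median length of 125.5 bases, and 9 were under 27 bases. The junctions were 188 in number. In 63 members the first exon skipped was exon 2, and in 43 of these the segment was not wholly coding. The annotated transcript that holds the skipped exon had 5 or more reads in 147 members, 0 reads in 38, and fewer reads than the member in 61. This last count sets the member against that 1 transcript read as a whole. Other chains of the gene can hold the exon, so it does not give the use of the exon.

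Mpc1, a subunit of the mitochondrial pyruvate carrier, had a skipping member as its leading form (chromosome 17, 8282904 to 8297657). Its chain 1 had 153 of 164 multi-exon reads in replicate 1 and 251 of 270 in replicate 2. Counting every read of the gene, 154 skipped the 81-base exon 2 and 1 held it in replicate 1, and 254 skipped it and 2 held it in replicate 2. The skipped segment was not wholly coding, and the member also kept an annotated intron of 848 bases. Slc27a1, a fatty acid transport protein, had few reads across the exon in question: of the reads with either the skipping or the inclusion junctions, 67 of 83 skipped a 117-base exon in replicate 1 (80.7%, interval 70.6 to 88.6) and 34 of 43 in replicate 2 (79.1%, 64.0 to 90.0). The annotated transcript with that exon had 0 reads as a whole, and the member held 44 of 315 reads of the gene in replicate 1 and 18 of 208 in replicate 2.

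Slc8b1, the mitochondrial sodium/calcium exchanger, was intermediate. A junction across exons 9 to 11, 333 bases in all, was used in 56.4% of reads in replicate 1 (31 skipping, 24 including) and 53.8% in replicate 2 (42 and 36). For this skip alone the annotated stop codon was predicted to be kept, with 474 codons in place of 585. Tbc1d9b, a protein with a domain that acts on Rab GTPases, skipped its 57-base exon 19 in 25.3% of reads in replicate 1 (42 and 124) and 23.2% in replicate 2 (29 and 96). Stk39, a kinase that acts on ion cotransporters, skipped its 63-base exon 13 in 15.7% of reads in replicate 1 (18 and 97) and 16.2% in replicate 2 (13 and 67). The intervals of replicates 1 and 2 overlapped for each of these genes.

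Rare skipping was found in genes with many reads, where alone the minimum of 5 reads lets it be seen. Chpt1, which completes phosphatidylcholine synthesis, skipped exon 5 in 4.26% of reads in replicate 1 and 5.22% in replicate 2 (named after its values were seen). G3bp1, an RNA-binding protein of stress granules, had 24 skipping and 644 including reads in replicate 1 (3.59%) and 17 and 621 in replicate 2 (2.66%). Joining its exons 2 and 4 predicted a stop codon after 37 codons in place of 465, 992 bases ahead of the last junction. Nadk, which phosphorylates NAD, skipped a segment of 205 bases, not wholly coding, in 5.50% of reads in replicate 1 and 3.87% in replicate 2.

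Skipping was also found in steroidogenic genes, at under 0.4% in Cyp21a1 and Cyp11b1. Cyp21a1, the 21-hydroxylase, had 32 reads that skipped exon 2 beside 8758 that held it in replicate 1 (0.364%) and 10 beside 4174 in replicate 2 (0.239%). Its exon 4 was skipped in 31 and held in 9291 reads in replicate 1 (0.333%), and skipped in 11 and held in 4578 in replicate 2 (0.240%). Each form would keep the frame and lose 30 or 32 codons. Cyp11b1, the 11β-hydroxylase, skipped its 189-base exon 8 in 15 of its reads in replicate 1 (0.184%) and 4 in replicate 2 (0.108%), and Srd5a2, a steroid 5α-reductase, skipped exon 4 in 17 beside 437 in replicate 1 (3.74%) and 22 beside 486 in replicate 2 (4.33%). Cyp21a1 has a near-identical pseudogene, so reads may be shared between the copies, and its values are uncertain to that extent. The Srd5a2 member also held a further new junction, with 2 splice sites that are not listed. Cyp11b1, Srd5a2 and Stk39 were named after their values were seen.

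Of the 12 exon-skipping members with the most reads, 5 were read in replicate 2 alone, the library with high liver markers, and the part that liver RNA had in them was not tested. H2-Q10, a class I histocompatibility gene (chromosome 17, 35470089 to 35474551), led all exon-skipping members with 0 of 5 reads in replicate 1 and 563 of 1470 in replicate 2. Its 33-base exon 6 was skipped in 642 and held in 670 reads of replicate 2 (48.9%). It belongs to a multigene family, so its reads may be shared with close copies. Proc, the anticoagulant protein C, had 176 reads in replicate 2, and Slco1b2, an organic anion transporter, had 139. The 1300017J02Rik member had 39, and that of Ambp, the precursor of α1-microglobulin, 43. Each of these 4 genes had 0 multi-exon reads in replicate 1. In Ambp 46 reads of replicate 2 skipped exon 4 and 1258 held it. The opposite case was Tnni2, a troponin of fast skeletal muscle, with 19 of 25 reads in replicate 1 and 0 multi-exon reads of the gene in replicate 2. Its skipped exon has 7 bases.

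Over 92 junctions with 20 or more skipping and inclusion reads in each library, the median use was 4.52% in replicate 1 and 5.31% in replicate 2. Both libraries together gave a use over 50% for 5 junctions, 10 to 50% for 21 and under 10% for 66. The intervals of replicates 1 and 2 overlapped for 91 of the 92. Over all 188 junctions, with few reads in many, the use was over 50% for 50, 10 to 50% for 44 and under 10% for 94, with medians of 7.94% in replicate 1 and 10.8% in replicate 2. Of the 50, 21 had no inclusion read, among them very short exons such as that of Sept7. The junctions were chosen by their reads, so these values describe them and no test was made.

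**Figure D3:**
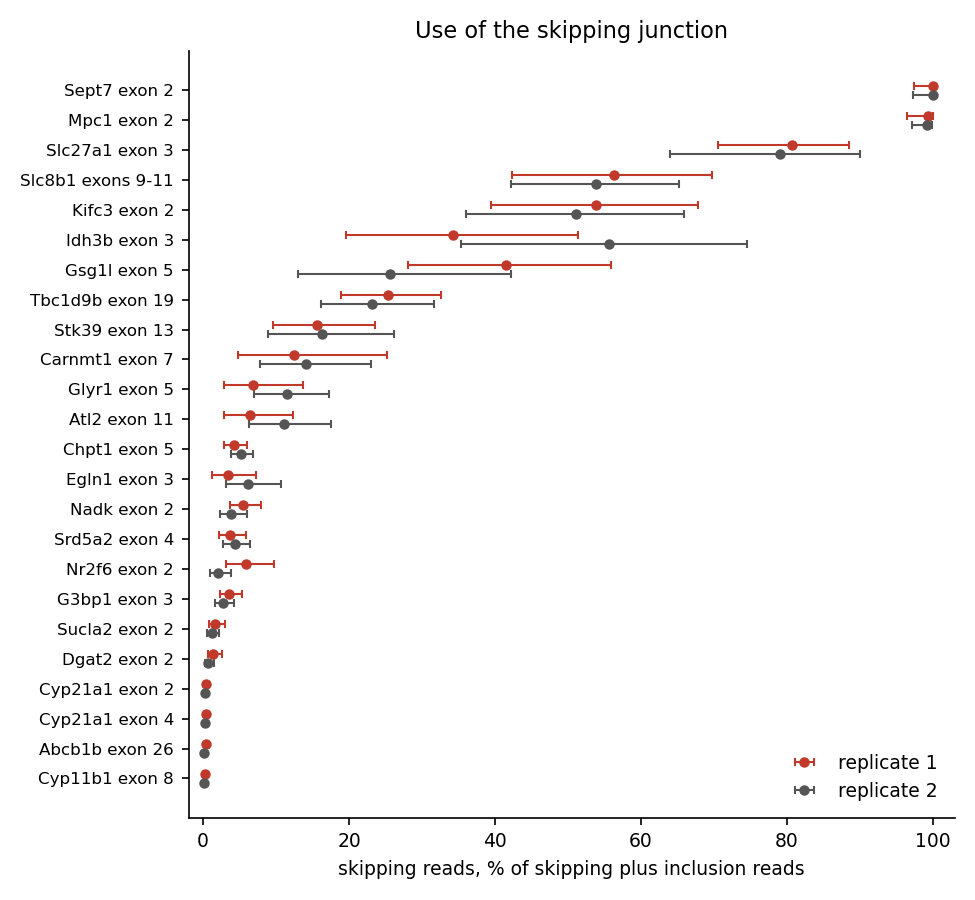
Use of the skipping junction, as skipping reads in % of skipping plus inclusion reads, for the 24 junctions of the most-read exon-skipping members with 20 or more such reads in each library. Points are replicates 1 and 2 with exact 95% intervals. Sept7 and Mpc1 stand above 99%, Slc8b1 near 55%, and the steroidogenic Cyp21a1 and Cyp11b1 under 0.4%.

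Of 133 members whose skipped segment lay wholly inside coding sequence, 84 had a length that is a multiple of 3 bases (63.2%, interval 54.4 to 71.4). Internal coding exons of the same genes had such a length in 511 of 1253 cases (40.8%, 38.0 to 43.6), and those of all genes with reads in 40.7%. With 1 exon skipped the share was 69 of 117 (59.0%), and with 2 or more it was 15 of 16 (93.8%, 69.8 to 99.8). For members read in both libraries it was 54 of 89 (60.7%). Leaving out segments under 27 bases gave 80 of 124 (64.5%). Some members share a junction or a gene, so the members are not independent of each other.

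**Figure D4:**
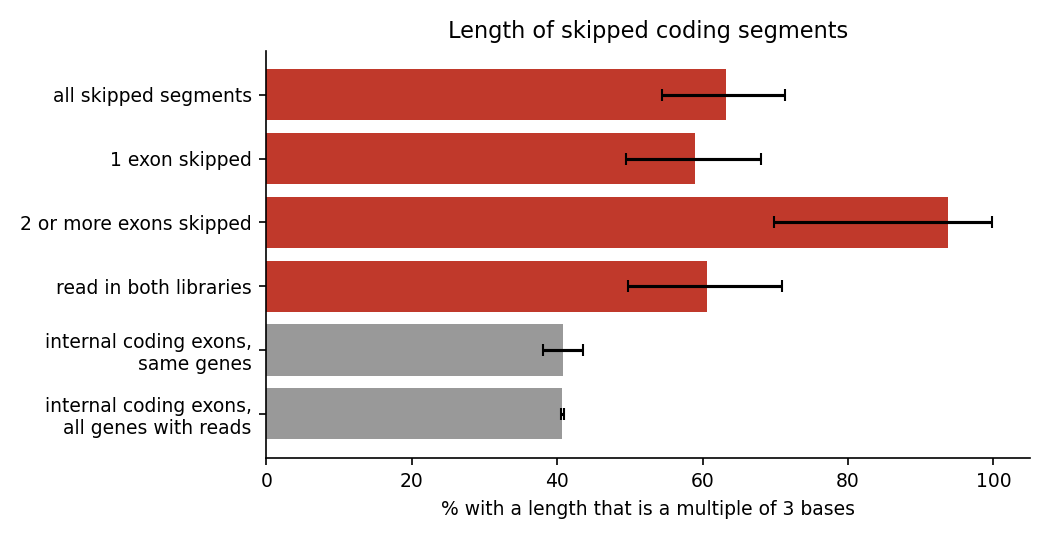
Share (%) of skipped coding segments whose length is a multiple of 3 bases, with exact 95% intervals. Red bars are exon-skipping members, grey bars the annotated internal coding exons. Skipped segments reached 63.2% and single coding exons of the same genes 40.8%.

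The reading frame was followed across the new junction for 131 coding skips whose annotated coding sequence is complete. Only the skipped segment was taken out of the annotated transcript, so other differences of a member did not enter the prediction. The annotated stop codon was kept in 82, all of them with a length that is a multiple of 3. Of the other 49, 36 met a stop over 50 bases ahead of the last exon junction and 13 another stop. Among the 36 were Sept7, Tnni2, Pitpnc1 and Cir1, whose skipped exons of 5, 7, 8 and 11 bases had no inclusion read. Annotated exons this short were hardly ever read, so these predicted stops are uncertain. Pitpnc1 and Cir1 were named after their values were seen. In Srd5a2 the predicted stop fell after 207 codons in place of 254, behind the last junction, for the skip alone and without the further new junction of that member. Among the 7 longer exons of the sequence list, those whose loss keeps the frame are the exons of Cyp21a1, Tbc1d9b (1227 codons in place of 1246), Stk39 (535 in place of 556) and Ambp (310 in place of 349). The short exons of Phb2, Itih3 and Idh3g are also multiples of 3 bases, but Idh3g chain 1 gained 4 bases beside the 12 it lost.

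New combinations of annotated introns were counted by where they differed from the closest annotated transcript. Of the 1064, 528 (49.6%) differed at the 5′ end, 397 (37.3%) internally and 114 (10.7%) at the 3′ end, while exon-skipping members differed internally in 106 of 200 (53.0%). Cyb561, the cytochrome b561 of chromaffin granules (chromosome 11, 105933702 to 105940164), used another annotated intron at the 5′ end in chain 1, which had 224 of 401 reads in replicate 1 and 242 of 408 in replicate 2. Cyb561 chain 2 had 31 reads in replicate 1 and 29 in replicate 2. Aldoa, the muscle-type aldolase of glycolysis, had 259 of 2596 reads in replicate 1 and 164 of 2892 in replicate 2 in a chain with another 5′ end. Ndufs1, a subunit of respiratory complex I, held 2 such members, with 84 and 54 of 464 reads in replicate 1 and 120 and 57 of 589 in replicate 2. Srebf1, a regulator of lipid synthesis, had 32 of 181 reads in replicate 1 and 49 of 192 in replicate 2. Hmgcs1, an enzyme of cholesterol synthesis, had 19 of 553 in replicate 1 and 22 of 755 in replicate 2. Cct6a, a subunit of the cytosolic chaperonin, had a junction with 2 unlisted sites in 243 of 274 reads in replicate 1, where it was classed NNC, and in 308 of 364 in replicate 2, where it was classed NIC. Mup10, a major urinary protein of liver (chromosome 4, 60578260 to 60662358), had a new junction between annotated sites in 1498 of 1641 reads in replicate 2. The gene had 0 multi-exon reads in replicate 1. It belongs to a multigene family of near-identical copies, so its value is uncertain.

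Retained introns ranged widely in length. The longest retained intron of the 466 members had a median of 408.5 bases and quartiles of 152 and 899. Selenbp2 chain 1 kept an intron of 552 bases in 438 of 2309 reads of replicate 2, and its gene had 0 multi-exon reads in replicate 1. Under 50 bases were 9 members, but these held 1146 of the 5103 reads of this structure in replicate 1 and 1785 of 6626 in replicate 2. Among them was Oaz1, which encodes an antizyme of polyamine metabolism whose translation needs a programmed ribosomal frameshift. Oaz1 chain 1 (chromosome 10, 80826682 to 80829290) had 825 of 869 reads in replicate 1 and 1288 of 1367 in replicate 2, more over both libraries than any other member. It matched an annotated transcript except that it kept a gap of 1 base that the annotation leaves between its exons. Oaz2, another antizyme, also kept a gap of 1 base, with 217 of 246 reads in replicate 1 and 267 of 300 in replicate 2. A gap of 1 base is not a spliced intron, so the Oaz1 and Oaz2 members are retained introns by the counting rule alone. Gbe1, the glycogen branching enzyme, had 95 of 112 reads in replicate 1 and 172 of 194 in replicate 2 in a chain that kept an annotated gap of 61 bases and differed by 67 bases in all. In these 3 genes the member was the leading form in both libraries.

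Reads in the library that did not choose a chain give a measure the choice did not need. Of 1335 NIC chains with 5 or more reads in replicate 1, 1216 were also read in replicate 2 (91.1%, interval 89.4 to 92.6). Of 1495 in replicate 2, 1194 were also read in replicate 1 (79.9%, 77.7 to 81.9). Annotated chains at the same minimum recurred in 97.4% when chosen in replicate 1 and 93.1% when chosen in replicate 2, and chains with new splice sites (NNC) in 90.1% when chosen in replicate 1 and 67.0% when chosen in replicate 2. Among chains of 5 to 9 reads, NIC chains recurred in 87.2% and annotated chains in 92.8% when chosen in replicate 1, and NIC chains in 77.5% and annotated chains in 89.0% when chosen in replicate 2. In all, 1673 members (79.9%) were read in both libraries and 847 had 5 or more reads in each. Only replicate 1 held 119 members, and only replicate 2 held 301.

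Exon-skipping members chosen in replicate 1 were read in replicate 2 in 88 of 98 cases (89.8%, interval 82.0 to 95.0), and the other members in 1128 of 1237 (91.2%, 89.5 to 92.7). Chosen in replicate 2, exon-skipping members were read in replicate 1 in 91 of 153 cases (59.5%, 51.3 to 67.3), and the other members in 1103 of 1342 (82.2%, 80.0 to 84.2). Genes that differed over 10-fold in level between the libraries held 174 of the 301 members read in replicate 2 alone. Leaving out those genes, an alternative chosen with these data known, gave 91 of 105 (86.7%, 78.6 to 92.5) against 1097 of 1210 (90.7%, 88.9 to 92.2), and the intervals overlapped. No test of these shares was made.

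**Figure D5:**
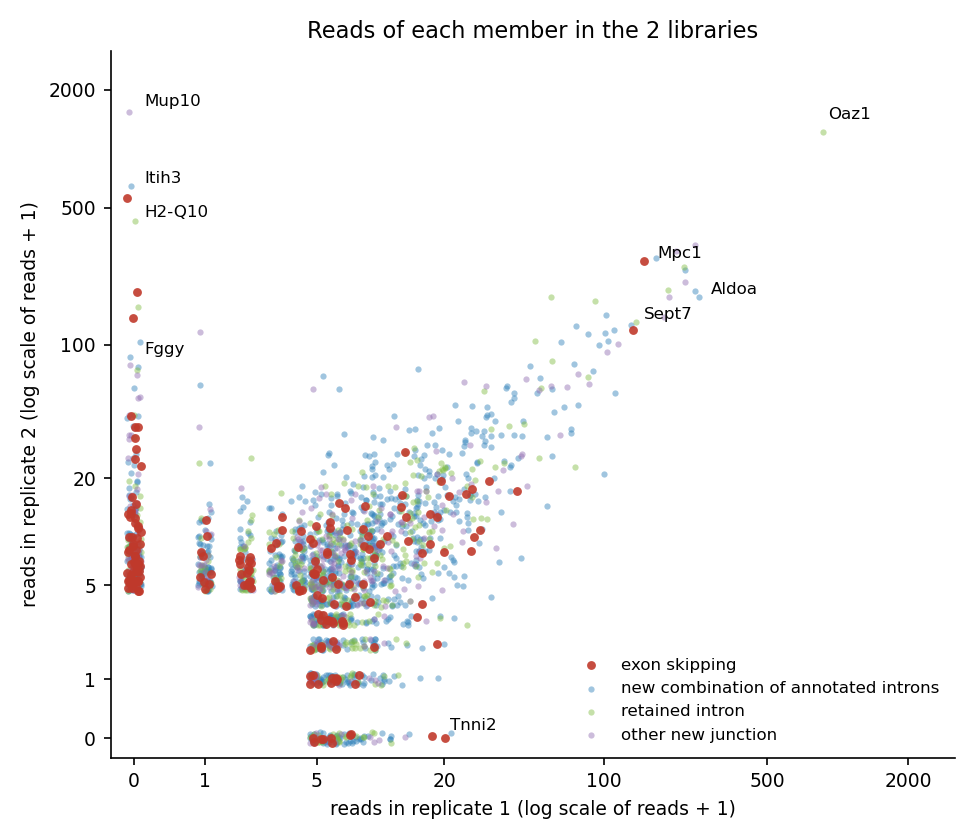
Reads of each member in replicate 1 (horizontal) and replicate 2 (vertical), on a log scale of reads + 1, with exon skipping in red and a small shift added to separate points. The empty lower left corner is set by the minimum of 5 reads. Oaz1 leads in replicate 1 with 825 reads and Mup10 in replicate 2 with 1498, and Mup10, Itih3 and H2-Q10 had no reads in replicate 1. The 3 members in loci with no annotated gene are not drawn.

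The share of a gene's multi-exon reads held by a chain was compared between replicate 1 and replicate 2 with Fisher's exact test (two-sided), Benjamini-Hochberg adjusted over 9906 chains of all classes, with a threshold of 0.05. This compares 2 libraries, not conditions. Over all chains 9.61% were called, 4.67% with a higher share in replicate 1 and 4.94% with a higher share in replicate 2. Of the members, 1102 could be tested and 50 were called (4.54%), 29 higher in replicate 1 and 21 higher in replicate 2. Incomplete matches (ISM) were called at 19.6%, annotated chains at 7.59% and NNC chains at 5.70%. With annotated, NIC and NNC chains alone, which also changes the gene totals, 3.04% of members and 3.17% of all chains were called. The cause of the gap between members and all chains was not tested. A member read in 1 library passed the minimum only through the library where it was high, so these counts are a description. Of 66 exon-skipping members 1 was called (1.52%), Sdsl chain 1 with 0 of 83 reads in replicate 1 and 14 of 149 in replicate 2, named after its values were seen. No read of replicate 1 skipped or held the exon in question, while in replicate 2 14 skipped it and 1 held it. The Sdsl call therefore does not compare use of that exon. Of 593 new combinations 32 were called (5.40%), of 268 retained introns 12 (4.48%) and of 175 with another new junction 5 (2.86%). At 5 or more reads in both libraries, 24 of 792 members (3.03%) and 587 of 7266 other chains (8.08%) were called. Members had a median log2 ratio (replicate 1 over replicate 2) of 0.14, and the other chains 0.01.

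The called members with the widest ratios in either direction are given as reads, since most had 0 reads in one library and were chosen by their reads in the other. Fggy, a carbohydrate kinase, had chain 1 in 0 of 57 reads in replicate 1 and 81 of 159 in replicate 2. Fpgs, which adds glutamate to folate, had 0 of 23 reads in replicate 1 and 75 of 121 in replicate 2. Cyp21a1 chain 16, which retained an intron of 88 bases, had 0 of 9856 in replicate 1 and 12 of 5024 in replicate 2. In the other direction Evi5 had 11 of 32 reads in replicate 1 and 0 of 60 in replicate 2. Myo18a, a myosin whose member lacked a 12-base exon, had 11 of 34 in replicate 1 and 0 of 49 in replicate 2. No read of either library held that exon, so its absence does not set the libraries apart. Ppp1r10 had 14 of 42 in replicate 1 and 0 of 25 in replicate 2, and Mapre3, a protein of microtubule ends, 10 of 43 in replicate 1 and 0 of 32 in replicate 2. Gtf2i chain 2, of a transcription factor gene, had 15 of 182 in replicate 1 and 1 of 197 in replicate 2. The calls of Mapre3 and Gtf2i were lost under other settings, and most of the others could not be tested in every setting. The Aldoa chain was also called, at 9.98% of the multi-exon reads of its gene in replicate 1 and 5.67% in replicate 2 (log2 ratio 0.81, adjusted p = 1.64e-07, Fisher's exact test). The part that liver RNA in replicate 2 and muscle RNA in replicate 1 had in these calls was not tested.

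The members lay in 1447 annotated genes, 1427 of them protein-coding. A single member was held by 1078 genes, 2 or more by 369 and 10 or more by 5. An exon-skipping member was held by 174 genes, of which 52 also held members of another structure. Of 3889 genes with 100 or more reads over both libraries, 964 held a member (24.8%). By depth the share was 20.6% of genes with 100 to 299 reads, 30.4% with 300 to 999, 43.0% with 1000 to 2999 and 55.2% with 3000 or more. In 46 of these genes members held 50% or more of the multi-exon reads.

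Cyp21a1 held the most members, 24, of which 15 were retained introns, 2 exon skipping, 2 new combinations and 5 other new junctions. Together they had 349 of 9856 reads in replicate 1 (3.54%) and 198 of 5024 in replicate 2 (3.94%), so each was rare. Cyp11a1, which cleaves the cholesterol side chain, held 14, with 361 of 11174 reads in replicate 1 (3.23%) and 309 of 7298 in replicate 2 (4.23%). Its leading member, Cyp11a1 chain 1, kept a 478-base intron in 137 reads in replicate 1 and 135 in replicate 2 and was called, with a log2 ratio of -0.59 (adjusted p = 0.0115, Fisher's exact test). Cdkn1c, an imprinted cell-cycle inhibitor, held 12 with a much larger share, 512 of 904 reads in replicate 1 (56.6%) and 493 of 900 in replicate 2 (54.8%), and 9 of the 12 had another new junction. Trf, transferrin, also held 12, with 1 read in replicate 1 (0.610% of its reads) and 163 in replicate 2 (0.513%). Rbm39, a splicing regulator, held 10, with 72 reads in replicate 1 and 48 in replicate 2 (named after its values were seen).

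The listed genes of steroid synthesis and its control held 58 members, in 12 of 22 genes with 100 or more reads (54.5%, beside 24.8% of all such genes, with no match for depth, which the share varies with as given above). Of the 58, 29 were retained introns and 7 exon skipping, and of 41 tested 3 were called, each higher in replicate 2. Fdxr, the reductase that feeds electrons to mitochondrial P450 enzymes, had 49 of 803 reads in replicate 1 and 74 of 1045 in replicate 2 in its leading member. The splicing factor genes held 52 members in 17 of 31 genes (54.8%), with 22 retained introns, 20 new combinations and 1 exon skipping. Of 41 tested 3 were called, 1 higher in replicate 1 and 2 higher in replicate 2. For both lists the shares to set beside these are 4.54% called of all members and 9.61% of all chains. Of all chains, 4.94% were called with a higher share in replicate 2. With 3 calls in each list, no result about these genes is drawn.

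The cholesterol genes held 13 members in 8 of 21 genes, 11 of them new combinations and none exon skipping, and 0 of 8 tested were called by Fisher's exact test, with 1 at an unadjusted p under 0.05. The chromaffin genes held 11 members in 4 of 9 genes, with 2 exon-skipping members in Chga, the chromogranin of secretory granules. Beside 4.54% called of all members and 9.61% of all chains, 1 of 9 tested chromaffin members was called, higher in replicate 2. That member, Th chain 2, retained an intron in the gene for tyrosine hydroxylase, with 3 of 1255 reads in replicate 1 and 16 of 1132 in replicate 2 (named after its values were seen). The respiratory genes held 12 members in 9 of 32 genes, none exon skipping, and 0 of 11 tested were called by Fisher's exact test, with 1 at an unadjusted p under 0.05. The liver genes held 29 members, with 1 read in replicate 1 and 586 in replicate 2, 161 of them in a Serpina3k chain that kept an intron of 914 bases and 50 in a chain of Gc, the vitamin D carrier. Of the liver members 3 were tested and of the muscle members 1, and Fisher's exact test called 0 of these, with 0 at an unadjusted p under 0.05. The skeletal muscle genes held 4 members, with 35 reads in replicate 1 and 5 in replicate 2, among them a Tpm2 chain with 5 reads in each library.

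Chains at the minimum of 5 reads and next to it are given without a test. Of 454 chains with exactly 5 reads in the higher library, 11.0% were exon skipping and 70.9% were read in both libraries. Of 833 with exactly 4 reads, 11.9% were exon skipping and 65.8% were read in both. With 3 reads the shares were 14.5% and 56.2% of 1537 chains, and with 6 reads 11.1% and 76.4% of 314.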

How the data were processed

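Models and their read counts were deposited by the authors, as whole numbers per transcript for each library, with the models' exons; per the file headers and descriptions the genome was mm10 with GENCODE M21, and the class names follow TALON. The aligner is not given in the sources used. Models were joined by intron chain, compared with GENCODE M21 and counted as deposited, with no normalization except CPM over gene reads. Python 3.11.15, numpy 2.4.6, pandas 2.3.3 and SciPy 1.17.1 were used. Chains with 10 or more reads, in genes with 20 or more in each library, were tested with Fisher's exact test (two-sided, 0.5 reads added for ratios only), tested on simulated data first. Named are the 12 exon-skipping and 12 other members with the most reads, the 8 largest shares, the 5 widest called ratios in each direction, the 3 genes with the most members and 2 members per list. The members and the 7 lists were chosen with earlier results of these data known. Some members that the naming rule covers are not reported here.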

Additional observations from a re-analysis of the deposited data

How the results depend on the processing

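No paired analysis was possible because both libraries belong to 1 group. The number of members, 2093 in 1447 genes, became 4463 in 2598 genes with 3 or more reads, 790 in 598 genes with 10 or more, and 737 in 575 genes with 5 or more in both libraries. Leaving out a library gave 1335 to 1495 members and 978 to 1072 genes. Exon skipping made up 11.7% with 3 or more reads, 6.92% with 5 or more in both libraries, 7.93% without genes over 10-fold different, 10.9% with all splice sites listed, 14.8% where any annotated exon inside a new intron counted, 8.08% weighted by reads and 7.02% where the annotated transcript had 5 or more reads. Leaving out a library gave 7.34% to 10.2%.

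New combinations made up 44.5%, 56.7% and 61.9% with 3 or more, 10 or more and 5 or more reads in both, 53.4% both with the deeper library thinned and without genes over 10-fold different, and 59.5% with all sites listed; leaving out a library gave 51.3% to 56.4%. Retained introns made up 24.9% with 3 or more reads, 19.9% with 10 or more and 25.99% with all sites listed. Other new junctions made up 14.8% with 10 or more reads, 8.55% with 5 or more in both, 15.6% thinned, 15.5% without genes over 10-fold different and 3.63% with all sites listed; leaving out a library gave 13.0% to 16.7%. The cause of these shifts was not tested. The share of coding skips that are a multiple of 3 stayed between 55.9% and 64.7%.

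Recurrence of chains chosen in replicate 1 was 82.3% at 2 or more reads in the other library, 80.5% and 97.6% for chains of 3 or more and 10 or more reads, and 86.2% thinned. For chains chosen in replicate 2 these were 72.6%, 72.2%, 83.7% and 82.0%, with 90.3% without genes over 10-fold different. Called members numbered 31 at 20 or more reads, 30 thinned and 31 with annotated, NIC and NNC chains alone, against 50. In these settings 6.78%, 3.64% and 3.04% of members were called, and 10.7%, 8.05% and 3.17% of all chains. Mapre3 lost its call in 3 settings (adjusted p 0.0600, 0.181 and 0.0977, Fisher's exact test) and Gtf2i in 1 (0.801). Of the widest called ratios, those of Fggy and Fpgs alone could be tested at 20 or more reads. Evi5, Myo18a and Ppp1r10 could not be tested with annotated, NIC and NNC chains alone. At 50 or more gene reads in each library Fpgs, Evi5, Myo18a, Ppp1r10 and Mapre3 could not be tested. The log2 ratio of Fggy, set by the reads added to a count of 0, was -5.88 with 0.5 and -3.96 with 2. The settings with all sites listed, with 5 or more reads in the annotated transcript, with retained introns of 50 or more bases, and for the members without genes over 10-fold different, every share of a structure other than exon skipping, and the thinned shares of exon skipping and of multiples of 3 were chosen after seeing the data. Chains of few reads limit every share.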
